A study of Mus musculus with 18 samples.

Results

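Dectin-1 (gene Clec7a) and 5 genes of the relay behind it, Card9, Bcl10, Malt1, Prkcd and Traf6, were followed in RNA sequencing libraries of mouse spleen monocytes. The 6 genes were taken by name from the 55416 genes of the count table, and all 6 were among the 17040 that passed the filter on low counts. The libraries came from sorted monocytes of WT (C57BL/6), Dectin-1 knockout and FcgRIIb knockout mice, each given PBS or IVIg (intravenous immunoglobulin, pooled IgG used against autoimmune and inflammatory disease), and all were labelled day 3. There were 6 groups of 3 libraries, from 3 independent mice per group by the design text. FcgRIIb is the inhibitory receptor for IgG and served here as a second knockout in which Clec7a itself was not the target. The sort gate, the knockout alleles and the age of the mice are not given in the sources used here. The comparison with WT asks whether loss of the Clec7a transcript is accompanied by a change in the adapters behind it.

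Dectin-1 is a C-type lectin of myeloid cells that binds β-glucan of fungal cell walls. Its cytoplasmic tail recruits the kinase Syk, protein kinase C delta (Prkcd) then phosphorylates the scaffold CARD9, and CARD9 assembles with BCL10 and the paracaspase MALT1. TRAF6, a ubiquitin ligase, is recruited by MALT1 and links the complex to the IKK kinases and NF-kB. These steps are known to be controlled mainly on the proteins, which RNA sequencing does not measure.

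The promoters of 4 members are shown, whose transcripts varied together or in opposition across the libraries, as described further on. Malt1 and Traf6, which also varied together, are not shown. Each sequence covers 250 bases before to 50 bases after the first start listed in RefSeq on GRCm38.p6, on the strand of the gene, and capitals mark GAGGAA (the core of PU.1 sites, PU.1 being a myeloid transcription factor) and GGGCGG (the GC box) on either strand.
Clec7a: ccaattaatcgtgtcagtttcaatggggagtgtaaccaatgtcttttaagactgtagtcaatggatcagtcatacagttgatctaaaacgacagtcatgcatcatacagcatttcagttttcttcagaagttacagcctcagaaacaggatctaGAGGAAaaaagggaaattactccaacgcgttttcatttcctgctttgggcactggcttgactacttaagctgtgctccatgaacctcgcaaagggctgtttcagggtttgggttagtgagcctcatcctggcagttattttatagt
Bcl10: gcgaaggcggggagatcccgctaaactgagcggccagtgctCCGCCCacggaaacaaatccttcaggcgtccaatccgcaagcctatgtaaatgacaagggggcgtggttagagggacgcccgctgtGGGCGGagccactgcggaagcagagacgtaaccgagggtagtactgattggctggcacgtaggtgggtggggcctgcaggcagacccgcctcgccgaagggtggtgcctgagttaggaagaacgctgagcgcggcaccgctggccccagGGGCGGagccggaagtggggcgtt
Card9: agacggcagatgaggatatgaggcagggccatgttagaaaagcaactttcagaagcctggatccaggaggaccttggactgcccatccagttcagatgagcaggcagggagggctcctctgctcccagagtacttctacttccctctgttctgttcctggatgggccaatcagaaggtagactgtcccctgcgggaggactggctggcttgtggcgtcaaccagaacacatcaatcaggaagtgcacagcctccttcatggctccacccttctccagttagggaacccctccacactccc
Prkcd: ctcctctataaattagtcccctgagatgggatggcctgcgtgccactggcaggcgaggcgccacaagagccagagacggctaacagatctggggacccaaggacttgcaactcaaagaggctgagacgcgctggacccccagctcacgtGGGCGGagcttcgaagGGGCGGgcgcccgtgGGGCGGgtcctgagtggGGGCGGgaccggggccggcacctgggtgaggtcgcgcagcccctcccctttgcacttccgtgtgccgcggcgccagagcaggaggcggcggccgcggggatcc
These windows lie at chr6:129472730-129473029 on the minus strand for Clec7a, chr3:145924012-145924311 on the plus strand for Bcl10, chr2:26360860-26361159 on the minus strand for Card9 and chr14:30626159-30626458 on the minus strand for Prkcd. The Clec7a window held 1 GAGGAA, no GGGCGG and 5 CpG. The Bcl10 window held 3 GGGCGG, the Prkcd window 4, and each of them 26 CpG. The Card9 window held neither motif and 3 CpG. The Traf6 window, not shown, held 2 GAGGAA, 2 GGGCGG and 19 CpG. Among 32851 promoter windows of the same length, 28.3% held GAGGAA, 35.7% held GGGCGG and the median number of CpG was 7.  TATAAA was in the Clec7a and Prkcd windows and in 13.6% of all, and none of the marked matches overlapped another. Bcl10 and Prkcd, whose transcripts ran in opposite directions across libraries, thus both had CpG-rich windows with GC boxes.

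Total counts were 16996494 to 48958909 in 17 libraries and 719494 in FcgRIIb knockout PBS replicate 2, where 3 counts equal 4.24 CPM (counts scaled to library size after TMM normalisation). Monocyte genes were abundant throughout, with Csf1r at 1425 to 2795 CPM and Lyz2 at 14559 to 35187 CPM. Markers of the monocyte subsets varied between libraries. The 7 classical markers summed to 4537 to 13072 CPM and the 10 non-classical markers to 2197 to 6641 CPM. The summed level of 7 T cell markers was 5.55 to 27.3 CPM and that of 6 B cell markers 18.7 to 82.6 CPM. The 8 neutrophil markers summed to 81.1 to 212 CPM except in Dectin-1 knockout IVIg replicates 1 and 2, at 647 and 1428 CPM. The relation of expression to exon length also differed between libraries: the Spearman correlation of each gene's deviation from its mean with exon length ran from -0.65 to 0.58 over 5288 genes, and was 0.53 in WT PBS replicate 3 and 0.58 in WT IVIg replicate 1. Their part in the results below was not tested, beyond the values given without these libraries or with the length trend removed.

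Clec7a, the receptor (ENSMUSG00000079293, chr6:129438554-129449742 on GRCm39, minus strand), was reduced to traces by the knockout. In WT it was at 821, 522 and 360 CPM after PBS and at 483, 766 and 739 CPM after IVIg. Dectin-1 knockout libraries held 2.24, 2.36 and 4.05 CPM after PBS and 0.247, 0.860 and 1.55 CPM after IVIg. Every knockout library was far below every WT library (6.22% of all genes had groups apart after IVIg, 16.3% after PBS and 0.241% over both), at a mean of 0.307% of the WT mean and between 0.0402% and 0.659% in single libraries. The log2 fold change was -7.65 ± 0.43 (SE, n = 3 against 3) after PBS, with an adjusted p of 4.72e-09, and -9.31 ± 0.48 after IVIg, with an adjusted p of 9.13e-10, in edgeR's quasi-likelihood test with Benjamini-Hochberg adjustment over 17040 genes. Over both treatments (6 against 6) it was -8.48 ± 0.32 with an adjusted p of 3.53e-12 in the same edgeR test, the smallest p of all genes, and against the FcgRIIb knockout it was -8.71 ± 0.32, where 0.340% of all genes had groups apart. An exact permutation test within treatments gave a two-sided p of 0.00500, the smallest its 400 assignments allow. These values check the genotype labels and were fixed by the knockout.

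**Figure D1:**
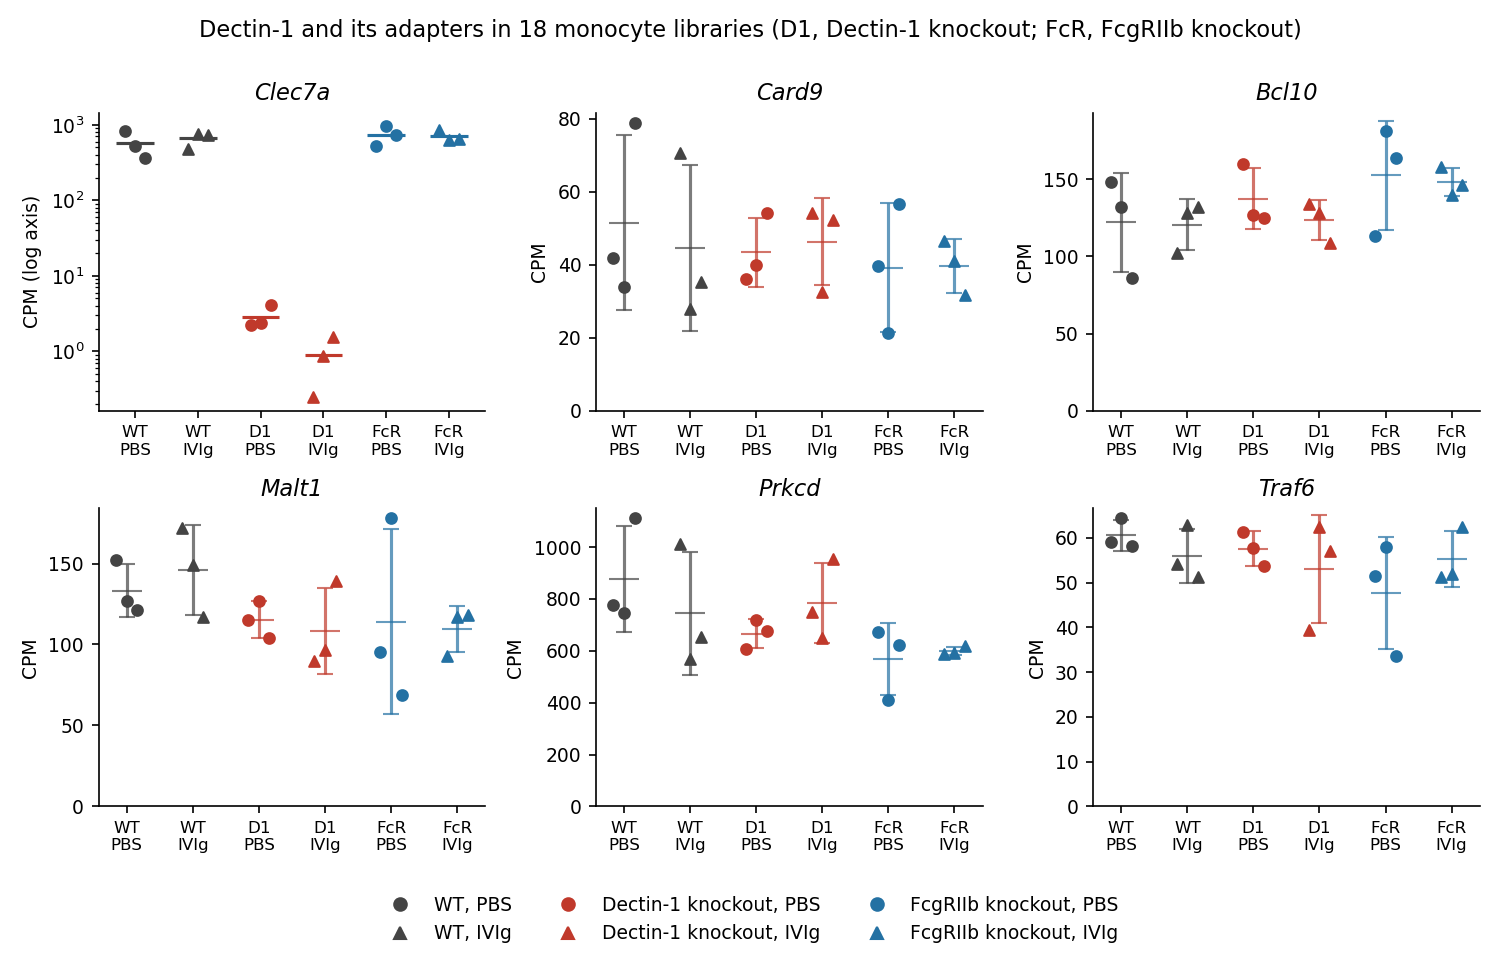
Expression of Dectin-1 (Clec7a) and its 5 adapters in 18 libraries, in CPM (log axis for Clec7a), with 3 libraries per group as points, the group mean as a horizontal line and, for the adapters, the SD as error bars. Clec7a is at 4.05 CPM or lower in all 6 Dectin-1 knockout libraries and at 360 CPM or higher in the other 12, while the adapters of the knockout lie within the range of the other genotypes.

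Counts on Clec7a remained in the knockout. They numbered 74, 89 and 109 after PBS and 4, 37 and 74 after IVIg, so even the lowest library was above 3 counts. All 3 PBS libraries were above all 3 IVIg libraries, by a log2 difference of -1.44 ± 0.53 for IVIg against PBS (adjusted p = 1.0 in edgeR). Groups lay apart in this way for 8.80% of all genes tested in that comparison, and 0% passed the adjusted threshold. The exons behind these counts are not resolved in a table of counts per gene.

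Neither IVIg nor loss of FcgRIIb passed the test for Clec7a. The FcgRIIb knockout held 530, 956 and 742 CPM after PBS and 861, 625 and 648 CPM after IVIg, overlapping WT. Its log2 fold change against WT was 0.36 ± 0.31 after PBS (95% interval -0.29 to 1.01) and 0.10 ± 0.30 after IVIg (-0.53 to 0.74). IVIg against PBS gave 0.22 ± 0.30 in WT (-0.41 to 0.86) and -0.04 ± 0.31 in the FcgRIIb knockout (-0.68 to 0.61). The shallow library, FcgRIIb knockout PBS replicate 2, had the highest level of all, 956 CPM from 677 counts.

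None of the 5 adapters passed the test in the Dectin-1 knockout, after PBS, after IVIg or over both treatments. Over both treatments 0.0998% of all genes were called, 0.0411% after PBS and 0.0528% after IVIg, and a count of 0 of 5 is near that background. No adapter had an unadjusted p under 0.05 in edgeR, and DESeq2 and limma voom also called 0 of 5 in each of the 3 comparisons. The 95% intervals over both treatments ran from 1.61-fold lower, for Malt1, to 1.34-fold higher, for Card9 and Bcl10. A change past those limits was outside every interval, and a smaller one was inside some of them. The intervals are unadjusted, whereas a call needed an adjusted p under 0.05 over 17040 genes. They are therefore not the limit of what these libraries could call, and larger changes could also go uncalled. Against the FcgRIIb knockout, where 0.241% of all genes were called, the count was again 0 of 5 and the intervals ran from 1.42-fold lower to 1.58-fold higher. The median log2 fold change of the 5 adapters was -0.10 against WT and 0.11 against the FcgRIIb knockout, beside -0.03 and -0.01 for all genes. Against WT it was -0.21 after PBS and 0.04 after IVIg, beside -0.02 for all genes in each.

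**Figure D2:**
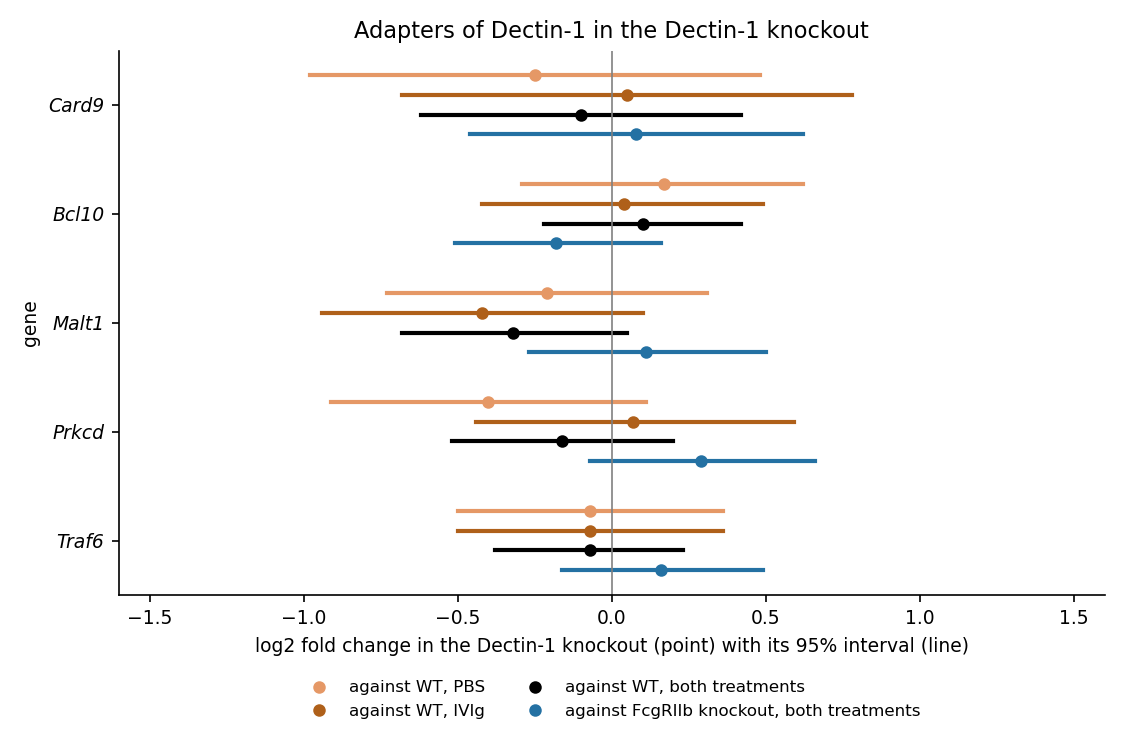
log2 fold change of the 5 adapters in the Dectin-1 knockout (points) with 95% intervals (lines), against WT after PBS, after IVIg and over both treatments, and against the FcgRIIb knockout over both treatments. Every interval includes 0, and those over both treatments against WT lie between -0.68 and 0.42.

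Prkcd, the kinase that phosphorylates CARD9 (ENSMUSG00000021948, chr14:30317311-30348167 on GRCm39, minus strand), was the most abundant adapter. It was at 775, 745 and 1114 CPM in WT PBS and at 1013, 568 and 653 CPM in WT IVIg. Its level in the Dectin-1 knockout was 606, 717 and 675 CPM after PBS and 748, 650 and 955 CPM after IVIg. After PBS the knockout libraries were all below the WT libraries, with means of 666 ± 56.5 and 878 ± 205 CPM (SD, n = 3). That difference, a log2 fold change of -0.40 ± 0.24, did not pass the edgeR test (adjusted p = 0.909), and 16.3% of all genes tested had groups that did not overlap in the same comparison. After IVIg the groups overlapped and the log2 fold change was 0.07 ± 0.24, and over both treatments it was -0.16 ± 0.17 (95% interval -0.52 to 0.20). Without WT PBS replicate 3, the library at 1114 CPM, the PBS value was -0.19, and without WT IVIg replicate 1, the library at 1013 CPM, the IVIg value was 0.36.

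The lowest mean Prkcd level was that of the FcgRIIb knockout, 583 ± 89.6 CPM (SD, n = 6), with single libraries at 671, 411 and 621 CPM after PBS and at 588, 590 and 618 CPM after IVIg. After PBS these libraries lay below all WT libraries, with a log2 fold change of -0.60 ± 0.25 (adjusted p = 0.515 in edgeR). This was the 1 adapter value with an unadjusted edgeR p under 0.05 in all 10 comparisons. No gene, 0% of those tested, was called in that comparison by edgeR, 1644 had an unadjusted p under 0.05, and 11.6% had groups that did not overlap. DESeq2 called 175 genes there and none of the 5 adapters. The library at 411 CPM is the shallow one, with 291 counts on Prkcd. The Dectin-1 knockout minus the FcgRIIb knockout gave 0.29 ± 0.17 for Prkcd over both treatments (95% interval -0.07 to 0.66).

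Card9, the scaffold (ENSMUSG00000026928, chr2:26242188-26250930 on GRCm39, minus strand), varied most among the adapters from library to library, with a coefficient of variation of 33.4% over all 18. It was at 41.8, 33.9 and 78.8 CPM in WT PBS and at 70.6, 27.9 and 35.4 CPM in WT IVIg. Knockout of Dectin-1 left it at 36.0, 40.0 and 54.1 CPM after PBS and at 54.1, 32.6 and 52.4 CPM after IVIg. All knockout values fell inside the WT range. The log2 fold change was -0.25 ± 0.35 after PBS, 0.05 ± 0.35 after IVIg and -0.10 ± 0.25 over both (95% interval -0.62 to 0.42). The sign depended on single WT libraries: without WT PBS replicate 3 the PBS value was 0.19, without WT IVIg replicate 1 the value over both treatments was 0.15, and without that pair it was 0.37, none of them called. The FcgRIIb knockout spanned 21.2 to 56.6 CPM after PBS, the lowest from 15 counts in the shallow library, and 31.8 to 46.4 CPM after IVIg. An antisense gene, Gm13562, overlaps exons of Card9 and held 0 to 246 counts per library, at most 7.92% of the Card9 counts. The counting set no strand and let a read count for every gene it overlaps. Reads of the overlap therefore counted for both genes, and their gene of origin cannot be told.

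Bcl10, the partner that CARD9 nucleates into filaments (ENSMUSG00000028191, chr3:145628559-145640111 on GRCm39, plus strand), was at 148, 132 and 86.0 CPM in WT PBS and at 102, 128 and 132 CPM in WT IVIg. In the Dectin-1 knockout it was at 160, 127 and 125 CPM after PBS and at 134, 128 and 109 CPM after IVIg. The groups overlapped in both treatments, and 5 of the 6 knockout libraries lay within the WT range. The log2 fold change over both treatments was 0.10 ± 0.15 (95% interval -0.22 to 0.42), and without WT PBS replicate 3 it was 0.00. The FcgRIIb knockout held 113, 181 and 164 CPM after PBS and 158, 140 and 146 CPM after IVIg. After IVIg these 3 libraries were above all 3 WT libraries, yet the log2 fold change of 0.29 ± 0.22 did not pass the edgeR test (adjusted p = 0.938), and 10.3% of all genes had groups that did not overlap there, while 0.0117% were called.

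Malt1, the paracaspase (ENSMUSG00000032688, chr18:65564009-65612138 on GRCm39, plus strand), had the lowest p of the 5 over both treatments. It was at 152, 127 and 121 CPM in WT PBS and at 172, 149 and 117 CPM in WT IVIg. The Dectin-1 knockout libraries were at 115, 127 and 104 CPM after PBS and at 89.9, 96.7 and 139 CPM after IVIg. Of the 6 knockout libraries 4 were below the lowest WT library, but the groups overlapped in both treatments. The log2 fold change was -0.32 ± 0.18 over both treatments (95% interval -0.68 to 0.05, adjusted p = 1.0 in edgeR), which ranked 1073 of 17040 genes by p. The exact permutation test gave an unadjusted two-sided p of 0.050, the smallest of 5 such tests on the adapters (0.435 to 0.955 for the others), and 0.0650 with RLE size factors. In the FcgRIIb knockout Malt1 was at 95.4, 178 and 68.6 CPM after PBS and at 92.9, 117 and 118 CPM after IVIg. The 178 CPM, the highest of all 18 libraries, comes from 126 counts in the shallow library. The FcgRIIb and Dectin-1 knockouts had means of 112 ± 37.2 and 112 ± 18.5 CPM (SD, n = 6 each), beside 139 ± 21.6 CPM in WT. The shallow library raises the first of these means. Malt1 has the longest exon length of the 6, 18040 bases, and after removal of each library's trend on length its log2 fold change was 0.10 after PBS and -0.64 after IVIg, neither called.

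Traf6, the ubiquitin ligase (ENSMUSG00000027164, chr2:101508774-101532014 on GRCm39, plus strand), had the smallest coefficient of variation of the adapters, 14.6% over 18 libraries. It was at 59.1, 64.5 and 58.1 CPM in WT PBS and at 54.1, 62.8 and 51.2 CPM in WT IVIg. Without Dectin-1 it was at 61.4, 57.8 and 53.7 CPM after PBS and at 39.4, 62.5 and 57.0 CPM after IVIg. The groups overlapped in both treatments, although 2 of the 3 knockout libraries after PBS and 1 of the 3 after IVIg, at 39.4 CPM, were below the lowest WT library of the same treatment. The log2 fold change was -0.07 ± 0.21 in each treatment and -0.07 ± 0.15 over both (95% interval -0.38 to 0.23). In the FcgRIIb knockout Traf6 was at 51.6, 57.9 and 33.6 CPM after PBS, below all WT PBS libraries, with a log2 fold change of -0.45 ± 0.23 (adjusted p = 0.526 in edgeR), where 11.6% of all genes had groups apart and 0% were called. After IVIg it was at 51.2, 52.0 and 62.5 CPM, overlapping WT.

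IVIg itself moved no adapter past the test. In WT the log2 fold changes of IVIg against PBS were -0.24 ± 0.24 for Prkcd, -0.21 ± 0.35 for Card9, -0.02 ± 0.22 for Bcl10, 0.13 ± 0.25 for Malt1 and -0.11 ± 0.20 for Traf6. In the Dectin-1 knockout they were 0.24 ± 0.24 for Prkcd, 0.09 ± 0.35 for Card9, -0.15 ± 0.22 for Bcl10, -0.08 ± 0.25 for Malt1 and -0.11 ± 0.21 for Traf6. The count called was 0 of 5 in each genotype, beside 0.00587% of all genes in WT and 0% in either knockout, and 0 of 5 had an unadjusted p under 0.05. No adapter had IVIg and PBS libraries that did not overlap, in any genotype, beside 6.33% of all genes in WT, 8.80% in the Dectin-1 knockout and 7.04% in the FcgRIIb knockout. The difference of the 2 responses, tested in the same model, was farthest from 0 for Prkcd, at 0.47 ± 0.34 (95% interval -0.25 to 1.20, adjusted p = 0.998 in edgeR). DESeq2 and limma voom also called 0 of 5 in each of these comparisons.

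Per kilobase of exon, the receptor was the most abundant transcript where it was intact. The mean level was 254 ± 66.1 CPM per kilobase for Clec7a over the 12 WT and FcgRIIb knockout libraries (SD). Over all 18 libraries it was 127 ± 30.9 for Prkcd, 29.3 ± 5.13 for Bcl10, 19.2 ± 6.43 for Card9, 6.98 ± 1.02 for Traf6 and 6.70 ± 1.59 CPM per kilobase for Malt1. Clec7a exceeded Prkcd in 11 of 12 libraries and Prkcd exceeded Bcl10 in 18 of 18. Bcl10 and Card9 overlapped in range, with Bcl10 higher in 16 of 18 libraries, and Traf6 and Malt1 were not separated, with Traf6 higher in 13 of 18. In CPM per kilobase, then, the mean of the kinase was 6.62 times that of the scaffold, and the mean of Bcl10 was 4.38 times that of Malt1. These ratios and the order above rest on the annotated exon lengths. In CPM, the means were 671 for Clec7a and 697 for Prkcd over the same 12 libraries. Over 18 libraries they were 134 for Bcl10 and 121 for Malt1.

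Several members were high or low together with each other from library to library. Over the 12 libraries with intact Clec7a, log2 CPM of Clec7a and Bcl10 had a Pearson r of 0.90 and a Spearman rho of 0.80, while Clec7a and Prkcd had -0.82 and -0.73. Over 18 libraries Card9 and Prkcd had 0.80 and 0.63, Bcl10 and Prkcd -0.84 and -0.65, and Malt1 and Traf6 0.66 and 0.57. These correlations are descriptions, across libraries that also differ in depth, length trend, markers of monocyte subsets and group. WT PBS replicate 3 and WT IVIg replicate 1 stood at an end of most of them, with the highest Card9 and Prkcd and the lowest Clec7a among intact libraries. Without that pair, the 2 farthest from the Clec7a median, Clec7a against Bcl10 had r = 0.74 and against Prkcd r = -0.57, whereas the r of Clec7a against Card9 went from -0.65 to -0.21. Card9 against Prkcd had r = 0.60 without the 2 libraries farthest from the Card9 median. These were WT PBS replicate 3 and the shallow FcgRIIb knockout PBS replicate 2, so WT IVIg replicate 1 stayed in.

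**Figure D3:**
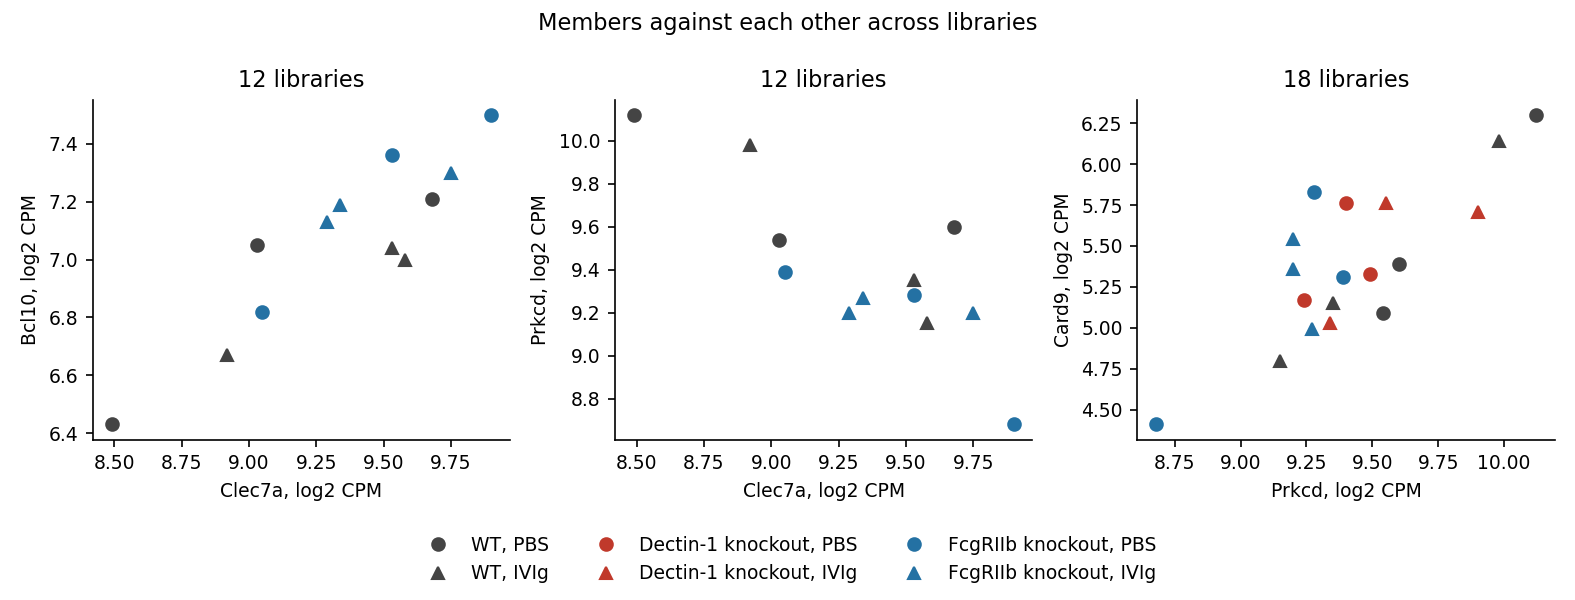
log2 CPM of members against each other, each point 1 library coloured by genotype and shaped by treatment. Bcl10 is higher and Prkcd lower where Clec7a is higher in the 12 libraries with intact Clec7a (Pearson r 0.90 and -0.82), and Card9 is higher where Prkcd is higher in all 18 (0.80).

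Among 8657 genes with a mean of at least 10 CPM, the genes most like each member were those with the highest Pearson r of log2 CPM. For Clec7a over the 12 intact libraries these were Paics and Degs1, both at 0.95, and Dazap2, at 0.94. For Prkcd over 18 libraries they were Bin2 at 0.96, Zc3h11a at 0.94 and Gmip at 0.93, and for Bcl10 Capza2 and Gm37401 at 0.93 and Cmpk1 at 0.92. Card9 was closest to Snrnp70 and Psme2b, at 0.86, and to Kri1, at 0.85. Malt1 was closest to Cyria at 0.87, Usp33 at 0.86 and Zfp148 at 0.85, and Traf6 to Lrrc8c at 0.89 and to Rmnd5a and Zfp790 at 0.87.

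Of 82 other genes listed for the pathway, 75 were tested, and over both treatments 1 fell and none rose in the Dectin-1 knockout, while 0.0998% of all genes were called. The median log2 fold change of the 75 was -0.06, beside -0.03 for all genes. After PBS it was -0.16 beside -0.02, with 56 genes lower and 19 higher. After IVIg it was -0.01 beside -0.02, with 39 lower and 36 higher. Over 5288 genes, the log2 fold changes against WT had a Spearman correlation with exon length of -0.51 after PBS and -0.04 after IVIg. Over both treatments that correlation was -0.48. The part of exon length in the medians and counts of the 75 was not tested. Within single treatments edgeR called 0 of the 75, with 3 at an unadjusted p under 0.05 after PBS and 2 after IVIg, and DESeq2 and limma voom also called 0. The gene that fell over both treatments was Clec9a, a lectin of dendritic cells that signals through Syk and binds actin exposed by dead cells. It was at 10.7, 6.65 and 8.63 CPM in WT PBS and 7.29, 16.3 and 6.50 CPM in WT IVIg, and at 5.64, 2.39 and 2.68 CPM in Dectin-1 knockout PBS and 3.40, 1.16 and 3.75 CPM in Dectin-1 knockout IVIg. Every knockout library was below every WT library, with a log2 fold change of -1.59 ± 0.30 (adjusted p = 0.0387 in edgeR), and 0.241% of all genes had groups apart in this way. It was -1.27 ± 0.42 after PBS (adjusted p = 0.909 in edgeR) and -1.91 ± 0.43 after IVIg (adjusted p = 0.171), not called in either alone. Against the FcgRIIb knockout, at 8.35 to 15.5 CPM, it was -1.72 ± 0.32 (adjusted p = 0.0151 in edgeR). Clec9a lies at chr6:129385825-129401726 on GRCm39, 36828 bases from Clec7a at chr6:129438554-129449742. The other 6 dendritic cell markers summed to 214 to 346 CPM in the Dectin-1 knockout, 278 to 478 CPM in WT and 310 to 451 CPM in the FcgRIIb knockout. Of these markers, Cd209a and Flt3 had the highest medians, 210 and 94.1 CPM, while Xcr1 was at 2.12 CPM or lower in every library. The part of these markers in the Clec9a result was not tested. In bulk samples fewer cells of a type and less RNA per cell cannot be told apart.

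The Clec9a call was sensitive to single libraries while its log2 fold change stayed between -1.85 and -1.32 against WT. Left out 1 at a time, the libraries without which it was no longer called were WT PBS replicate 1 (adjusted p = 0.123 in edgeR) and replicate 3 (0.0666), WT IVIg replicate 2 (0.118), Dectin-1 knockout PBS replicates 2 (0.184) and 3 (0.158), and Dectin-1 knockout IVIg replicates 1 (0.0659) and 2 (0.135). Leaving out the shallow library also ended it (adjusted p = 0.0739 in edgeR), as did leaving out either of FcgRIIb knockout IVIg replicates 1 and 2 (0.0554 each). Against the FcgRIIb knockout it was lost without Dectin-1 knockout PBS replicates 2 (edgeR adjusted p = 0.0689) and 3 (0.0625), Dectin-1 knockout IVIg replicate 2 (0.0521) or FcgRIIb knockout PBS replicates 2 (0.0573) and 3 (0.0797).

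The remaining lists held no gene that passed the test over both treatments. Among the other lectin receptors and their signalling chains, the 7 besides Clec9a did not pass, the median of all 8 being 0.12 against WT and -0.27 against the FcgRIIb knockout, and Fcer1g, the common chain of several of these receptors, was at 0.37 ± 0.23. Of 11 kinases, exchange factors and other signalling proteins between receptor and CARD9, 0 passed: Syk, which binds the Dectin-1 tail, was at -0.16 ± 0.27 on the log2 scale and Vav1, an exchange factor behind Syk, at -0.10 ± 0.14. After PBS mean Syk was 429 ± 44.9 CPM in the Dectin-1 knockout and 689 ± 246 CPM in WT (SD, n = 3). After IVIg the knockout mean was the higher, 609 ± 199 CPM beside 475 ± 222 CPM in WT, and Syk was called in neither treatment. Of 6 other protein kinase C genes tested, 0 passed, with Prkcq at -0.81 ± 0.57 and Prkce at 0.17 ± 0.18. Prkcq was scarce, at a mean of 1.02 CPM, with 0 counts in Dectin-1 knockout PBS replicate 2 and in the shallow library. Of the 3 CARD scaffolds related to CARD9, 0 passed, and Card10 had the lowest p, at -0.65 ± 0.28 (adjusted p = 1.0 in edgeR).

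Downstream of the complex, 0 of 10 TRAF and ubiquitin partners passed, and Traf2, an adapter of TNF receptors, was at -0.30 ± 0.16. Of 9 IKK and NF-kB genes 0 passed, with a median of -0.15 against WT (-0.24 after PBS and -0.08 after IVIg) and 0.08 against the FcgRIIb knockout, and Nfkbia, the NF-kB inhibitor that NF-kB itself induces, at -0.30 ± 0.18. Of 8 other MALT1 substrates 0 passed. Zc3h12a (Regnase-1), an RNase that MALT1 cleaves, had the lowest p of these, at -0.94 ± 0.47 (adjusted p = 1.0 in edgeR), with 30.9 and 21.8 CPM in WT PBS replicate 3 and WT IVIg replicate 1 and 1.95 to 9.70 CPM in the other 4 WT libraries. The 10 regulators of CARD9, Syk and Dectin-1 also held 0 called, with Sh3bp2 at -0.24 ± 0.22 and Otud1, which removes ubiquitin from CARD9, at 0.23 ± 0.22, and so did the 8 calcineurin and NFAT genes, with Ppp3cb at 0.10 ± 0.12.

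Of the cytokine and inflammatory genes known as outputs of the pathway, 3 of 9 passed the filter on low counts, Il1b at 18.6 to 134 CPM, Tnf at a mean of 3.29 CPM and Ptgs2 at a mean of 0.135 CPM. Il1b was at -0.23 ± 0.30 on the log2 scale and Tnf at -0.09 ± 0.45, and 0 of 3 passed. Il6, Il10, Il12b and Il23a were at 0.385 CPM or lower in every library, and had no counts in the shallowest. Cxcl2 and Csf2 had no counts in any. An absence of counts allows up to 0.0615 CPM of a gene in the deepest library and 4.24 CPM in the shallowest.

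**Figure D4:**
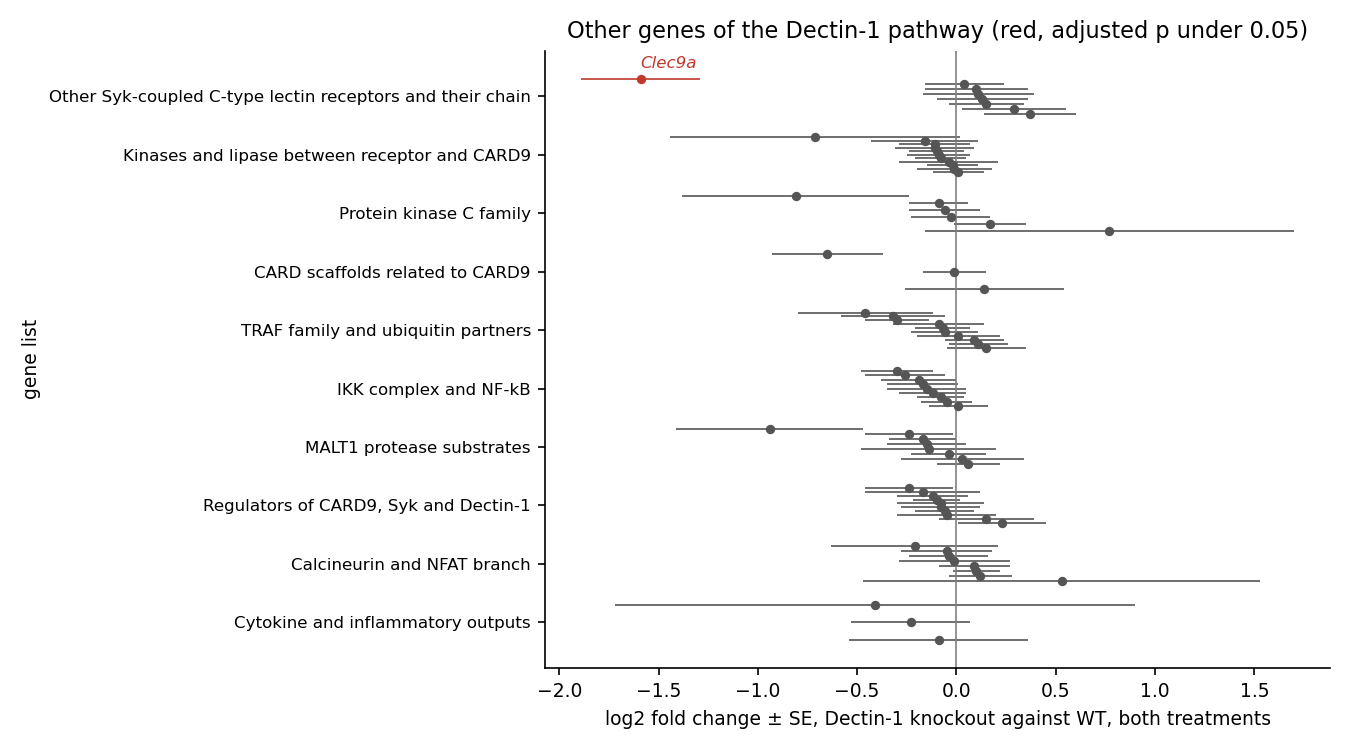
log2 fold change ± SE of the other pathway genes tested in the Dectin-1 knockout against WT over both treatments, by list. Clec9a, at -1.59 in red, is the single gene with an adjusted p under 0.05, and most of the others lie within 0.5 of 0.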

How the data were processed

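Messenger RNA libraries of sorted spleen monocytes were made with a stranded kit, per the labels' protocols, and aligned by STAR against the GRCm39 genome, which the submitters' processing notes name. The authors deposited raw counts per gene, made by featureCounts 2.0.2 from Ensembl genes, per the file headers. The recorded command sets no strand option and lets a read count for every gene it overlaps. The table holds 18 further columns that match no sample, and these were left aside.

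From the deposited counts, 17040 genes passed filterByExpr and were fitted with edgeR 4.0.16 in R 4.3.3 (TMM, quasi-likelihood, 1 model of 6 groups, 18 libraries). A gene was called at an adjusted p under 0.05 (Benjamini-Hochberg over all genes tested, per comparison). SEs come from the F statistic and 95% intervals from the t distribution. The procedure was also run on simulated counts, drawn with the same spread for every gene and no length trend. These libraries differ from that setting, so the run does not measure the power of the tests here. CPM use TMM-scaled totals, and a prior count of 2 entered log2 CPM. Alternatives used DESeq2 1.42.0 and limma 3.58.1, among others.

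The members, the pathway and marker lists and the rules were chosen with earlier results of these data known. From each list up to 4 called genes per comparison, or the 2 with the smallest p where none passed, could be named. Syk, Tnf, Fcer1g and the untested cytokines were named after their values were seen. Replicate numbers are names given in order of accession and pair nothing. A few libraries carry the same code in their titles with no stated meaning, so p-values measure the spread between libraries, which may be technical in part. Floors of 3 counts cover counting error only.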

Additional observations from a re-analysis of the deposited data

How the results depend on the processing

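Each member's log2 fold change was recomputed in all 10 comparisons under 28 settings, 18 that leave out 1 library and 10 others (size factors, low-count filters, DESeq2, limma voom, the older quasi-likelihood fit, own groups only, abundant genes left out, length trend removed, WT PBS replicate 3 and WT IVIg replicate 1 left out). The count of adapters called was 0 of 5 under every setting in every comparison, and Clec7a kept its call in the Dectin-1 knockout in all of them. Over both treatments against WT, the log2 fold change of Clec7a ranged from -8.79 to -8.30 without single libraries. Of 1568 recomputed values for members not called in a comparison, 37 moved by more than 1 SE and none became called. Without the pair of WT libraries, Card9 was at 0.37, Prkcd at 0.09 and Bcl10 at -0.05 over both treatments.

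Counts over all genes, the background of the adapters' counts, moved both ways. Against WT over both treatments, 17 genes were called, 33 by DESeq2, 27 without the pair of WT libraries, 9 by the older fit, and 11, 10 and 11 without Dectin-1 knockout PBS replicate 2, PBS replicate 3 or IVIg replicate 2. After PBS the 7 calls became 16 without the pair, 14 by DESeq2 and 12 by limma voom. After IVIg the 9 became 5 with own groups only, 16 with no filter, 23 by DESeq2 and 28 without Dectin-1 knockout IVIg replicate 3. Against the FcgRIIb knockout, 41 became 81 by DESeq2 and 20 without immunoglobulin, haemoglobin and mitochondrial genes. FcgRIIb knockout against WT after PBS went from 0 to 175 by DESeq2 and 40 without FcgRIIb knockout PBS replicate 1. The Clec9a call against WT was lost under the older fit (adjusted p = 0.209) and with own groups only (0.295), by edgeR. No paired analysis was possible because the labels carry no replicate numbers. Depth limits FcgRIIb knockout PBS replicate 2, where Card9 rests on 15 counts and Traf6 on 41, and the Clec7a value of Dectin-1 knockout IVIg replicate 1, which rests on 4 counts.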
